A study of Homo sapiens with 6 samples.

Results

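The 9 genes described here encode receptors of the IL6 cytokine family and the JAK-STAT3 route behind them, namely IL6R, IL6ST, OSMR, LIFR, JAK1, JAK2, TYK2, STAT3, and SOCS3. They were taken by gene symbol from a table of 46427 genes, and all 9 were found and had reads in each of the 6 libraries. The set was chosen by a measured value, since IL6R had risen after si-MALAT1 in each cell line, so the change of IL6R is a description with no test. The other genes were picked by name with earlier results of these libraries known.

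Total RNA was sequenced from the lung cancer cell lines H460, H1299, and A549, with 1 control and 1 si-MALAT1 library for each. These are established human non-small cell lung cancer (NSCLC) lines, each grown as 1 line in culture with no added cytokine named. The si-MALAT1 cells were transiently transfected with a small interfering RNA against MALAT1 in Lipofectamine RNAiMAX, a lipid carrier. The labels call the controls non-treated, whereas the methods speak of negative controls as well as si-Control cells without saying which were sequenced, so the part of transfection in a difference cannot be told apart from that of MALAT1. No time after transfection is given for the RNA.

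IL6 binds IL6R, and the pair then engages IL6ST, also called gp130, the signal-passing chain that the family shares. LIFR and OSMR are further chains that join IL6ST to form receptors for LIF and for oncostatin M. The kinases JAK1, JAK2, and TYK2 sit on the receptor tails and phosphorylate STAT3, a transcription factor that enters the nucleus. SOCS3 is a STAT3 target whose protein binds IL6ST and the JAKs and dampens the signal. Phosphorylation is not seen in RNA, and the gene table does not separate transcripts that encode membrane and soluble IL6R.

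The receptor genes OSMR and LIFR were the members whose 3' UTR, the transcript end after the stop codon, held either of the 7-base words TGAATCA and ATGAATC. An earlier search of these same libraries had picked those words as going with lower transcript levels after si-MALAT1, so the match is a description and no independent support. They were searched on the transcript strand and can overlap in the 8 bases ATGAATCA. They were found in 18.0% of 13125 genes with a 3' UTR and 50 or more reads on average. That share is not matched for length, as the median 3' UTR of those genes was 1357 bases, against 2197 in OSMR and 6927 in LIFR. The sites on GRCh38, with the words in capitals, are shown 5′ to 3′ because both genes are receptor chains that share IL6ST.
OSMR, chr5:38934053-38934080, plus strand: aaaatgtgtgATGAATCAacaagatttc
LIFR, chr5:38479955-38479981, minus strand: ttctctgtgtATGAATCctgattttaa
LIFR, chr5:38478536-38478562, minus strand: atgaaccttgTGAATCAtatattgcat

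Among the other pathway genes described further down, 11 of 74 (14.9%) held either word. They include PTPN11 and STAT5B, lower after si-MALAT1 in each line, and PIAS1 and GAB1, higher in each line. The sites of these 4 are shown to cover both directions and do not give the split by direction among the 11. Among the other carriers, STAT2 and IFNAR2 were also lower in each line. ADAM10 was higher in each line, by a log2 fold change of 0.01 in H460, and LIF, CNTF, and SOCS6 had changes of both signs. STAT5A and YES1, also lower in each line, held neither word.
PTPN11, chr12:112507573-112507599, plus strand: cctcatatgtTGAATCAtccagtgcgg
PTPN11, chr12:112509602-112509628, plus strand: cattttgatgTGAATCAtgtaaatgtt
STAT5B, chr17:42201650-42201676, minus strand: ttttaattccATGAATCgcttctcttt
STAT5B, chr17:42200745-42200771, minus strand: ttgcaaatgtTGAATCAtggttctgtt
PIAS1, chr15:68189811-68189837, plus strand: atgttttttaATGAATCtggcattata
PIAS1, chr15:68191824-68191850, plus strand: ggtagaggttTGAATCAaacacttaat
GAB1, chr4:143471882-143471908, plus strand: aaactaaattTGAATCAaaccctttta
GAB1, chr4:143473835-143473861, plus strand: gactcttcacTGAATCAtatttgggaa

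The words were not in the 3' UTR of IL6R, IL6ST, JAK1, JAK2, TYK2, STAT3, or SOCS3 in the transcripts used.

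Read counts summed to between 42506818 and 68515992 per library, and both A549 libraries were the shallowest. MALAT1, the targeted lncRNA, had 231045 reads in the H460 control, 407551 in that of H1299, and 93747 in that of A549. After si-MALAT1 it had 43858, 47935, and 14447 reads, so the knockdown was seen in each line. Of 4 epithelial markers, KRT8 and KRT18 were abundant in every library, while CDH1 had 2 to 13 reads in the H460 and H1299 libraries. The summed level of the 4 ranged from 458 to 672 TPM (StringTie's transcript level, scaled for length and depth) in H460 and H1299, and was 4727 TPM in the A549 control and 2075 TPM in A549 si-MALAT1. That sum is mostly KRT8 and KRT18, and in A549 the other markers, EPCAM (196 and 485 reads, control first) and CDH1 (4693 and 7373), had more reads after si-MALAT1. EPCAM had more in each line but was low in the other lines, at 30 and 73 reads in H460 and 23 and 43 in H1299. The blood cell markers PTPRC and CD3E had 0 reads in all 6 libraries, and the 4 blood cell markers together had 0 to 53 reads. Of 3 fibroblast markers, summed levels ranged from 0.244 to 3.37 TPM and were higher in the si-MALAT1 library of each line. In H460 the markers did not move together, with COL1A1 at 0.505 and 1.32 TPM and PDGFRB at 2.52 and 2.05 TPM, control first. The part of these markers in the results was not tested. CDKN2A, known as deleted in H460 and A549, had 0 reads in those 4 libraries.

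Within a line, change is given as log2 of the RLE-scaled read count plus 1, si-MALAT1 minus control. RLE scaling divides each library by the median ratio of its genes to their mean over libraries. With 1 library per line and condition there is no replicate check, and the exact 95% Clopper-Pearson interval beside each value covers counting error only. In bulk RNA, fewer expressing cells and less RNA per cell cannot be told apart.

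IL6R (Gene ID 3570, chromosome 1, 154405343 to 154469450, plus strand) binds IL6 and sets which cells answer it through membrane receptor. Its level was 6.65 TPM in the H460 control and 13.9 TPM after si-MALAT1, 0.348 and 1.07 TPM in H1299, and 2.04 and 8.40 TPM in A549. The si-MALAT1 library was above its own control in each line, and H1299 si-MALAT1 still lay below every H460 and A549 library. H460 had 2089 and 4690 reads, which gives a log2 fold change of 1.25 (95% interval 1.17 to 1.32), or 2.37-fold. H1299 had 119 and 309 reads, which gives a log2 fold change of 1.498 (1.20 to 1.83), or 2.82-fold. A549 had 390 and 1837 reads, which gives 2.09 (1.93 to 2.25), or 4.25-fold. IL6R was thus the member with the largest change in each line, with a mean of 1.61 ± 0.43 (SD, n = 3 lines), as the rule that chose it requires it to have risen. Part of its exons, 33.9% of 6655 bases, overlaps the gene SHE on the opposite strand. SHE had 62 reads in the 6 libraries together against 9434 for IL6R. Whether counting used the strand is not given in the sources used here.

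**Figure D1:**
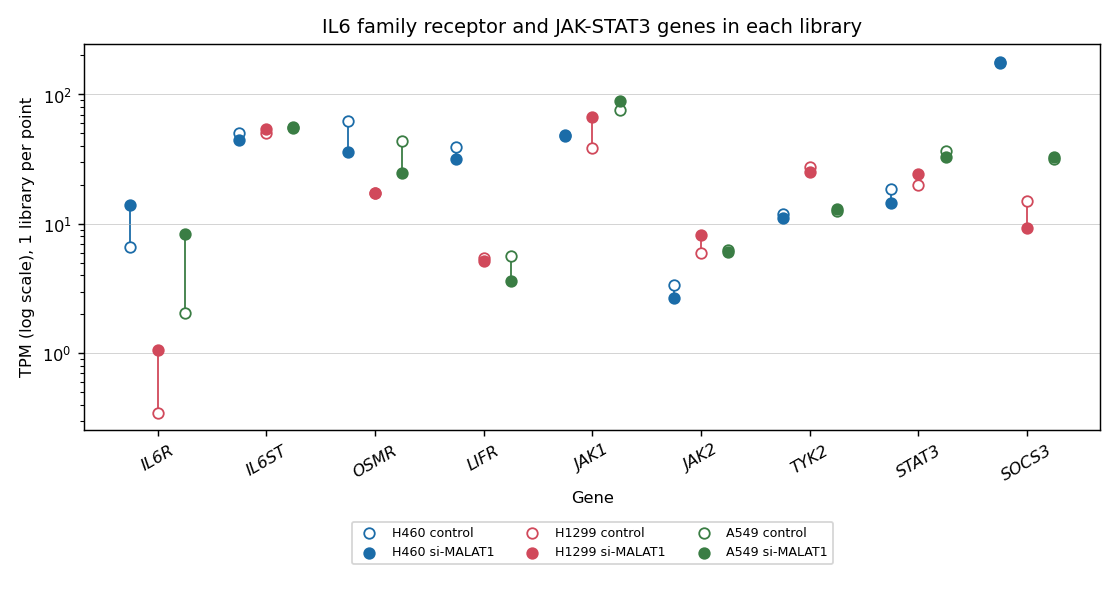
Level of each of the 9 genes in each of the 6 libraries, in TPM on a log axis, with 1 point per library, open for control and filled for si-MALAT1, and a line joining the pair of each cell line. IL6R spans 0.348 to 13.9 TPM with the filled point above the open one in each line, while IL6ST stays between 44.6 and 56.4 TPM.

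IL6ST (Gene ID 3572, chromosome 5, 55935095 to 55994963, minus strand) carries the signal for the whole family. Its level was 50.1 and 44.6 TPM in H460, 50.2 and 54.6 TPM in H1299, and 56.4 and 55.4 TPM in A549, control first. The 6 libraries overlapped and the highest was 1.26 times the lowest, the narrowest range among the 9 genes. The log2 fold change was -0.07 (-0.09 to -0.04) in H460, 0.06 (0.04 to 0.09) in H1299, and -0.01 (-0.04 to 0.01) in A549. A pseudogene named after it, IL6STP1, had reads equal to 0.569% to 1.93% of those of IL6ST in the 6 libraries.

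OSMR (Gene ID 9180, chromosome 5, 38845858 to 38945579, plus strand) pairs with IL6ST to bind oncostatin M and with IL31RA to bind IL31. Its level was 62.5 and 35.8 TPM in H460, 17.3 and 17.5 TPM in H1299, and 43.9 and 24.8 TPM in A549, control first. It was lower after si-MALAT1 in H460 and A549, and the H1299 libraries were the lowest of the 6 and nearly equal. H460 had 18696 and 11077 reads, a log2 fold change of -0.67 (-0.71 to -0.64). H1299 had 5117 and 4262 reads, or -0.13 (-0.19 to -0.07), a difference that was 0.012 on the log2(TPM + 1) scale. A549 had 7609 and 4715 reads, or -0.84 (-0.89 to -0.78). RICTOR on the opposite strand shares 1.2% of the exonic bases of OSMR and had 49767 reads in all, against 51476 for OSMR.

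LIFR (Gene ID 3977, chromosome 5, 38474668 to 38606290, minus strand) pairs with IL6ST to bind LIF. Its level was 39.0 and 31.8 TPM in H460, 5.49 and 5.22 TPM in H1299, and 5.64 and 3.64 TPM in A549, control first. Each si-MALAT1 library was below its control, and both H460 libraries were far above the other 4. H460 had 22960 and 20293 reads, a log2 fold change of -0.10 (-0.12 to -0.07). H1299 had 3252 and 2773 reads, or -0.10 (-0.17 to -0.03). A549 had 2083 and 1499 reads, or -0.62 (-0.72 to -0.52), the only LIFR change past the fold of 1.5, and short of it at -0.52 on log2(TPM + 1) and -0.47 on log2(FPKM + 1). Antisense LIFR-AS1 shares 3.51% of the exonic bases of LIFR and had 1181 reads in all, against 52860 for LIFR.

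JAK1 (Gene ID 3716, chromosome 1, 64833223 to 65067746, minus strand) is the kinase that IL6ST signalling depends on most. Its level was 47.5 and 48.5 TPM in H460, 38.5 and 67.4 TPM in H1299, and 75.5 and 89.4 TPM in A549, control first. Each si-MALAT1 library was above its control, by little in H460 and A549 and by more in H1299. H1299 had 11306 and 17275 reads, which gives a log2 fold change of 0.74 (0.71 to 0.78), or 1.67-fold. In H460 it was 0.17 (0.13 to 0.20) and in A549 0.25 (0.22 to 0.29). RAVER2 on the opposite strand shares 3.4% of the exonic bases of JAK1 and had 11426 reads in all, against 88780 for JAK1.

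JAK2 (Gene ID 3717, chromosome 9, 4985086 to 5129948, plus strand) was the least abundant of the 3 member kinases, at 3.37 and 2.66 TPM in H460, 6.004 and 8.26 TPM in H1299, and 6.25 and 6.03 TPM in A549, control first. Its highest library was H1299 si-MALAT1, and both H460 libraries were the lowest. Its log2 fold change was -0.13 (-0.24 to -0.01) in H460, 0.38 (0.30 to 0.46) in H1299, and -0.0008 (-0.11 to 0.11) in A549.

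TYK2 (Gene ID 7297, chromosome 19, 10350528 to 10380572, minus strand), which also serves interferon receptors, was at 12.0 and 11.1 TPM in H460, 27.4 and 25.0 TPM in H1299, and 12.5 and 12.96 TPM in A549, control first. Both H1299 libraries were above the other 4, and each pair of libraries was close. The log2 fold change was -0.01 (-0.08 to 0.07) in H460, -0.23 (-0.28 to -0.18) in H1299, and 0.04 (-0.05 to 0.13) in A549.

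STAT3 (Gene ID 6774, chromosome 17, 42313324 to 42388502, minus strand), the transcription factor of the route, was at 18.8 and 14.4 TPM in H460, 20.0 and 24.3 TPM in H1299, and 36.4 and 33.0 TPM in A549, control first. Both A549 libraries were above the other 4, and the direction of change was not shared by the lines. STAT3 had a log2 fold change of -0.25 (-0.30 to -0.19) in H460, 0.23 (0.18 to 0.28) in H1299, and -0.13 (-0.18 to -0.08) in A549.

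SOCS3 (Gene ID 9021, chromosome 17, 78356778 to 78360925, minus strand), the feedback inhibitor, was at 179.6 and 175.4 TPM in H460, 15.1 and 9.33 TPM in H1299, and 31.6 and 33.1 TPM in A549, control first. H460 had by far the most in both libraries, and H1299 si-MALAT1 had the least. H1299 had 2327 and 1200 reads, which gives a log2 fold change of -0.82 (-0.93 to -0.72). The log2 fold change was 0.10 (0.08 to 0.13) in H460, which was -0.03 on the log2(TPM + 1) scale, and 0.07 (0.0007 to 0.14) in A549. SOCS3 was thus lower after si-MALAT1 in the 1 line with the least IL6R, and within 0.11 of its control on the log2 scale in the other lines.

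**Figure D2:**
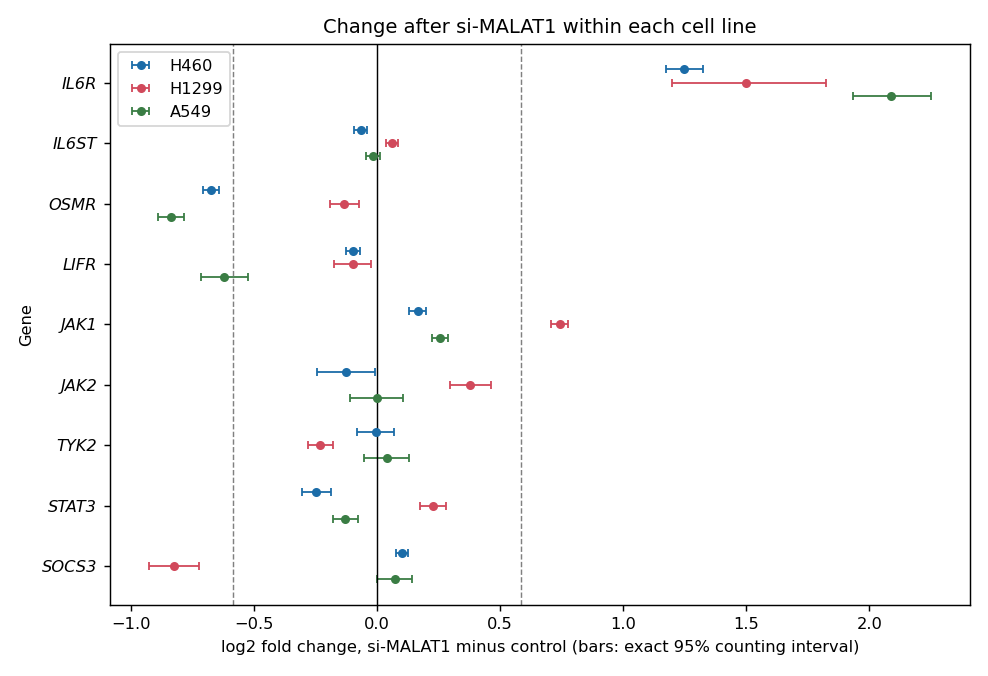
Log2 fold change of each gene after si-MALAT1 within each cell line, with exact 95% counting intervals as bars and dashed lines at a fold change of 1.5 in either direction. IL6R lies to the right of the dashed line in each line (1.25, 1.498, and 2.09), OSMR to the left in H460 and A549, and SOCS3 to the left in H1299.

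A fold change of 1.5, a log2 value of 0.585, was used to count genes within a line. In H460, 1 member was higher (IL6R) and 1 lower (OSMR), beside 9.5% and 10.3% of the 17834 genes with reads in each library. In H1299, 2 members were higher (IL6R and JAK1) and 1 lower (SOCS3), beside 11.7% and 11.4% of all genes. In A549, 1 member was higher (IL6R) and 2 lower (OSMR and LIFR), beside 11.5% and 11.4% of all genes. Past that fold in each of the 3 lines, 1 member was higher, which was IL6R and is what the rule chose, and 0 were lower, beside 1.19% and 1.28% of all genes. In H1299, where IL6R is near 1 TPM or below, its change was 0.62 on log2(TPM + 1) and 0.49 on log2(FPKM + 1), the latter short of the fold. The median log2 fold change of the 9 members was -0.07 in H460, 0.06 in H1299, and -0.0008 in A549, against 0.02, 0.02, and 0.01 over all genes.

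The pairs of the 3 lines were then tested together with edgeR's quasi-likelihood test, blocked by cell line and adjusted by Benjamini-Hochberg over 19122 genes. It called 0.00523% of the genes, which was 1 gene, MALAT1, at a log2 fold change of -2.72 ± 0.16 (SE) and an adjusted p of 0.0381. IL6R, whose change in these pairs chose it, is given no p here. None of the other 8 members was called by edgeR, with 1 higher (JAK1) and 1 lower (OSMR) at an unadjusted p under 0.05, and DESeq2 called OSMR alone. Over all 19122 genes, 7.38% were higher and 7.59% lower at an unadjusted p under 0.05 in edgeR, so 1 of 8 members either way is near that background. DESeq2 called 2.94% of all genes higher and 3.02% lower, beside 0 and 1 of the 8 members. OSMR had a log2 fold change of -0.57 ± 0.16 (SE; 95% interval -0.96 to -0.17), with an adjusted p of 0.203 in edgeR and 0.0286 in DESeq2, and it was lower in 3 of 3 lines on the scaled counts. JAK1 had a log2 fold change of 0.37 ± 0.15 (0.01 to 0.73), with an edgeR adjusted p of 0.323, and was higher in 3 of 3 lines. LIFR had a log2 fold change of -0.29 ± 0.14 (-0.64 to 0.07), with an edgeR adjusted p of 0.425, and was lower in 3 of 3 lines. The edgeR estimates of IL6ST, JAK2, TYK2, STAT3, and SOCS3 lay between -0.23 and 0.07 with intervals on both sides of 0, from -0.72 to 0.40 at their widest. Over the alternatives, the adjusted p of OSMR ranged from 0.0286 to 1.

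The levels of the members in the 3 lines were not used to choose them and could be tested. The spread in this test is that of the response to si-MALAT1 between lines. For IL6R that response chose it, so its p-values between lines are not free of the choice. The line test was fitted in edgeR on all 6 libraries with treatment as a block, so that the 2 libraries of a line differ by treatment and are not replicates of one condition. Its adjusted p-values are Benjamini-Hochberg values over 21771 genes, and each of its 3 comparisons called 6 of the 9 members. The share of all genes called was 50.7% for H1299 against H460, 35.3% for A549 against H460, and 47.2% for A549 against H1299. On the log2(TPM + 1) scale the median gene was 0.17 higher in H1299 and 0.15 higher in A549 than in H460. On the scaled counts these differences were -0.01 and 0.0004, so levels in TPM are raised in those lines. The size of this shift differs by gene. IL6ST averaged 47.4 TPM in H460 and 52.4 TPM in H1299, while its edgeR log2 difference for H1299 minus H460 was -0.21.

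IL6R was highest in H460 at 10.3 ± 5.15 TPM (SD, n = 2 libraries), then A549 at 5.22 ± 4.49 TPM, then H1299 at 0.710 ± 0.512 TPM. On the edgeR scale it was lower in H1299 than in H460 by a log2 difference of -4.25 ± 0.25 (SE), 19.1-fold, at an adjusted p of 9.09e-05. A549 was below H460 by -1.48 ± 0.22 (adjusted p = 0.0042 in edgeR) and above H1299 by 2.78 ± 0.24 (adjusted p = 0.000417 in edgeR). Each step in that order was past the test, although the A549 and H460 libraries overlapped, at 2.04 and 8.40 TPM against 6.65 and 13.9 TPM. Without the treatment block, the difference of A549 from H460 had an adjusted p of 0.241.

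SOCS3 followed the same order of lines, at 177.5 ± 2.97 TPM in H460, 32.4 ± 1.00 TPM in A549, and 12.2 ± 4.11 TPM in H1299 (SD, n = 2 libraries each), with no overlap of the libraries of any pair of lines. H1299 was below H460 by a log2 difference of -4.28 ± 0.28 (19.4-fold, adjusted p = 0.000133 in edgeR). A549 was below H460 by -2.76 ± 0.26 (6.79-fold, adjusted p = 0.000791 in edgeR) and above H1299 by 1.52 ± 0.25 (adjusted p = 0.00442 in edgeR).

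LIFR stood apart in H460, at 35.4 ± 5.08 TPM against 5.35 ± 0.189 TPM in H1299 and 4.64 ± 1.41 TPM in A549 (SD, n = 2 libraries each). H1299 was below H460 by a log2 difference of -3.06 ± 0.19 (8.33-fold, adjusted p = 0.00011 in edgeR) and A549 by -3.21 ± 0.19 (9.26-fold, adjusted p = 0.000161 in edgeR). A549 and H1299 were not separated, with a log2 difference of -0.15 and a 95% interval from -0.59 to 0.28.

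OSMR was at 49.2 ± 18.9 TPM in H460, 34.4 ± 13.5 TPM in A549, and 17.4 ± 0.111 TPM in H1299 (SD, n = 2 libraries each). H1299 was below H460 by a log2 difference of -1.82 ± 0.20 (adjusted p = 0.000875 in edgeR). A549 was below H460 by -0.87 ± 0.20 (adjusted p = 0.019 in edgeR), though their libraries overlapped, and above H1299 by 0.96 ± 0.20 (adjusted p = 0.0104 in edgeR). IL6ST was called in none of the 3 comparisons by edgeR, with log2 differences of -0.21 (-0.53 to 0.10) for H1299 minus H460, -0.07 (-0.39 to 0.25) for A549 minus H460, and 0.14 (-0.17 to 0.46) for A549 minus H1299. DESeq2 gave an adjusted p of 0.0421 for IL6ST in H1299 against H460, at a log2 difference of -0.20.

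Among the kinases, JAK1 was higher in A549 than in H1299 by a log2 difference of 0.74 ± 0.18 (adjusted p = 0.0188 in edgeR), and its difference from H460 was 0.48 (95% interval 0.04 to 0.92, adjusted p = 0.0888 in edgeR). JAK2 was lowest in H460, with H1299 higher by 0.80 ± 0.17 (adjusted p = 0.01 in edgeR) and A549 higher by 0.64 ± 0.17 (adjusted p = 0.0317 in edgeR). TYK2 was highest in H1299, by 0.82 ± 0.13 over H460 (adjusted p = 0.00373 in edgeR), while A549 was below H1299 by -0.98 ± 0.14 (adjusted p = 0.00222 in edgeR). STAT3 was highest in A549, by 0.78 ± 0.16 over H460 (adjusted p = 0.0139 in edgeR) and by 0.71 ± 0.16 over H1299 (adjusted p = 0.0145 in edgeR). H1299 and H460 were not separated for STAT3, at 0.07 (-0.33 to 0.47).

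**Figure D3:**
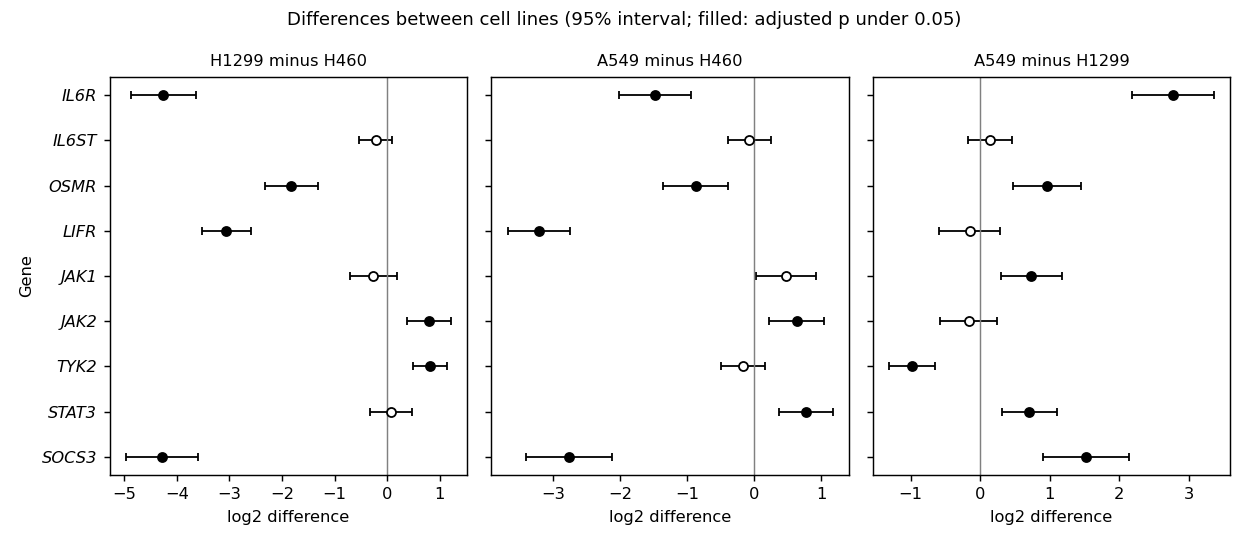
Log2 difference of each gene between cell lines from the edgeR fit on 6 libraries, with 95% intervals as bars and filled points at an adjusted p under 0.05, and with its own horizontal scale in each panel. IL6R, OSMR, LIFR, and SOCS3 lie to the left of 0 in H1299 and in A549 against H460, down to -4.28 for SOCS3, and IL6ST is open in each panel.

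When 1 library was left out of the line test, the calls of IL6R, LIFR, SOCS3, and TYK2 were kept, and some of those of JAK1, JAK2, STAT3, and OSMR were lost. Without the A549 control 6 calls were lost, and without A549 si-MALAT1 5 were lost, which were those of JAK1, JAK2, STAT3, and OSMR in the A549 comparisons. Without the A549 control, adjusted p-values of those 6 calls ran from 0.0623 to 0.214. Without H460 si-MALAT1, JAK2 lost both calls (0.0586 and 0.155) and STAT3 its call against H460 (0.078). Without the H460 control, OSMR lost its call in A549 against H460 (0.0843), and without the H1299 control, JAK1 (0.0522) and STAT3 (0.0532) lost theirs in A549 against H1299. JAK1 became called in A549 against H460 when either H1299 library was left out (0.0214) and in DESeq2 (0.0347), and in H1299 against H460 without H1299 si-MALAT1 (0.0367). Without the treatment block, OSMR in A549 against H460 (0.094) and JAK1 in A549 against H1299 (0.0594) were also lost, as was JAK2 in A549 against H460 without a filter on low counts (0.0511). These are adjusted p-values from edgeR except where DESeq2 is named.

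Ligands of the family also differed widely between lines. IL6, the ligand of IL6R, was counted 10875 times in H460 control cells and 5250 times in H460 si-MALAT1 cells, 21 and 12 times in A549, and 0 times in both H1299 libraries, where a count of 0 allows up to 3 reads. So the line with the most IL6R also had the most IL6, at 154.4 TPM in its control. LIF, the ligand of LIFR, was at 50.9 and 29.9 TPM in H460, 10.3 and 19.0 TPM in H1299, and 33.7 and 18.4 TPM in A549, control first. LIF was thus lower after si-MALAT1 in H460, by a log2 fold change of -0.64 (-0.68 to -0.59), and in A549, by -0.86 (-0.93 to -0.80), and higher in H1299, by 0.81 (0.73 to 0.88). OSM, the ligand of OSMR, had 201 and 151 reads in H460 and 0 to 2 reads in the other 4 libraries.

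IL11, another ligand that signals through IL6ST, was at 8.42 and 2.87 TPM in A549, control first, and below 0.7 TPM in H460 and H1299. Of the 11 ligands, 8 were tested in the pairs and edgeR called 0, with 0 higher and 1 lower (IL6) at an unadjusted p under 0.05, beside 7.38% and 7.59% of all genes. DESeq2 called IL6 lower, at a log2 fold change of -0.96 and an adjusted p of 0.0123, against an edgeR adjusted p of 0.114, where DESeq2 called 3.02% of all genes lower. The H460 pair holds nearly all IL6 reads.

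The further receptors of the family differed by line too. IL31RA, which joins OSMR to bind IL31, was at 20.9 and 24.8 TPM in H1299, 2.32 and 1.39 TPM in A549, and had 0 reads in both H460 libraries. H1299, the line with the least OSMR, thus had the most IL31RA. IL11RA, which binds IL11, was at 3.79 and 4.70 TPM in H460, 8.07 and 7.42 TPM in H1299, and 3.89 and 6.74 TPM in A549, control first. IL27RA was at 3.34 and 2.88 TPM in H460, 10.7 and 12.2 TPM in H1299, and 6.38 and 4.23 TPM in A549. Of these 4 receptors, CNTFR included, 3 were tested in the pairs and edgeR called 0, with 0 at an unadjusted p under 0.05 and 0 called by DESeq2.

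**Figure D4:**
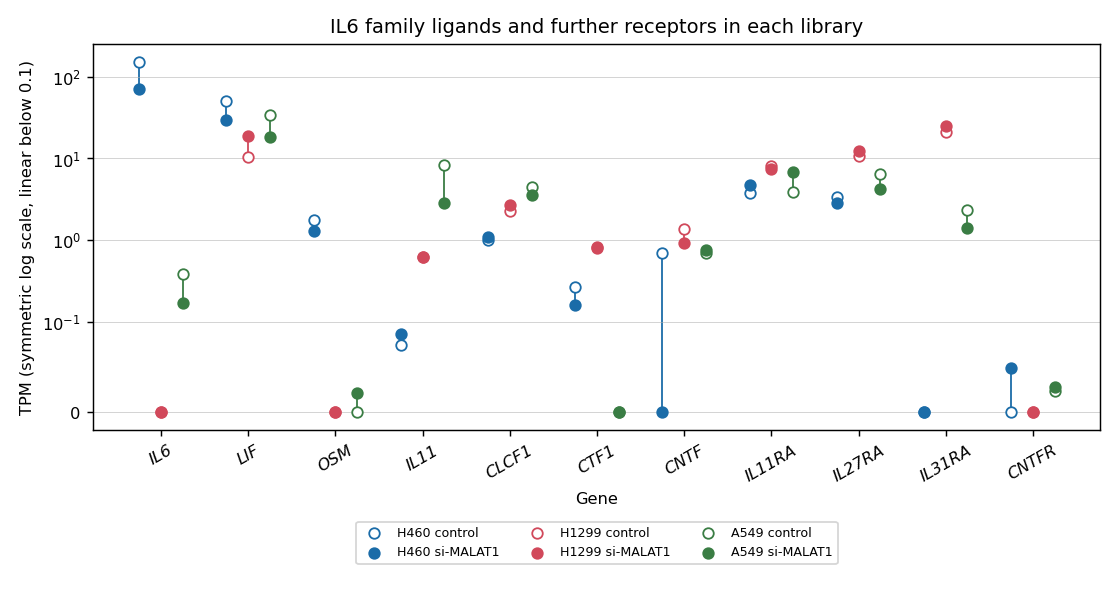
Level of ligands and further receptors of the IL6 family in each library, in TPM on an axis that is logarithmic above 0.1 and linear below it, with open points for control and filled points for si-MALAT1. IL6 lies at 154.4 and 70.7 TPM in H460 and at 0 in H1299, and IL31RA at 20.9 and 24.8 TPM in H1299 and at 0 in H460.

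The other STATs and JAK3 had a median log2 fold change below 0 in each line. STAT5B, a STAT used by growth hormone and IL2 family receptors, had 4105 and 2108 reads in H460, control first, or a log2 fold change of -0.88 (-0.96 to -0.80). H1299 had 1317 and 602 reads of it, or -0.997 (-1.14 to -0.86), and A549 had 3597 and 1801, or -1.14 (-1.23 to -1.06). STAT5A, its close paralog, had 505, 44, and 99 reads in the controls of H460, H1299, and A549, and 271, 13, and 51 after si-MALAT1, or log2 fold changes of -0.81, -1.55, and -1.09. Reads shared between these near-identical genes may be split by counting, so both values are uncertain. STAT2 had log2 fold changes of -0.18, -0.43, and -0.48 in H460, H1299, and A549, whereas STAT6 had 0.08, 0.58, and -0.04. Of the 7 genes of that list, edgeR called 0 in the pairs, with 4 lower and 0 higher at an unadjusted p under 0.05, beside 7.59% and 7.38% of all genes. DESeq2 called 3 of them lower, STAT5A and STAT5B among them, beside 3.02% of all genes. The edgeR adjusted p was 0.0734 for STAT5B and 0.151 for STAT5A. The list median was -0.38 in the paired fit, against 0.0048 over all genes and -0.07 for the 8 members other than IL6R.

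Of 18 negative regulators and shedding enzymes, edgeR called 0, with 2 higher and 1 lower at an unadjusted p under 0.05, near the 7.38% and 7.59% of all genes. DESeq2 called 1 higher (PIAS1) and 1 lower (PTPN11), beside 2.94% and 3.02% of all genes. PTPN11, a phosphatase known as SHP2 that docks on IL6ST, had 17952, 15874, and 10375 reads in the controls of H460, H1299, and A549, and 9720, 7008, and 3983 after si-MALAT1. Its log2 fold changes were -0.80 (-0.84 to -0.77), -1.05 (-1.09 to -1.01), and -1.53 (-1.58 to -1.47), with an edgeR adjusted p of 0.0751 for the pairs. ADAM10 and ADAM17, which can cut IL6R from the cell surface, did not share a direction. ADAM17 had log2 fold changes of -0.51, 0.09, and -0.05 in H460, H1299, and A549, and ADAM10 had 0.01, 0.48, and 0.22.

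Of 6 adaptors and kinases that act beside STAT3, 5 were tested and edgeR called 0, with 1 higher and 1 lower at an unadjusted p under 0.05, beside 7.38% and 7.59% of all genes. DESeq2 called GAB1 higher and YES1 lower, beside 2.94% and 3.02% of all genes. YES1, a SRC family kinase, was at 32.9 and 18.6 TPM in H460, 38.6 and 20.9 TPM in H1299, and 50.9 and 21.7 TPM in A549. It had log2 fold changes of -0.68, -0.96, and -1.22 and an edgeR adjusted p of 0.0751. SRC itself had -0.46, 0.55, and -0.29, and GRB2, an adaptor, -0.05, 0.10, and -0.17.

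Genes known as STAT3 targets had changes of both signs. FOS, also an immediate early gene induced by many stimuli, had 1287, 1276, and 7677 reads in the controls of H460, H1299, and A549, and 9352, 6990, and 18442 after si-MALAT1. Its log2 fold changes were 2.94 (2.86 to 3.03), 2.58 (2.50 to 2.67), and 1.12 (1.08 to 1.16), with an edgeR adjusted p of 0.0866 for the pairs. MCL1, a survival gene, had log2 fold changes of -0.72, 0.46, and 0.55 in H460, H1299, and A549, and TIMP1, a protease inhibitor, -0.36, 0.16, and 0.03. Of 22 targets, 20 were tested and edgeR called 0, with 3 higher and 3 lower at an unadjusted p under 0.05, beside 7.38% and 7.59% of all genes. DESeq2 called 3 higher (BCL6, CCND1, and FOS) and 1 lower, beside 2.94% and 3.02% of all genes. The list median in the paired fit was 0.0046, and 0.0048 over all genes.

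Of 6 interferon receptor genes and partners that share the JAKs, edgeR called 0, with 0 higher and 1 lower at an unadjusted p under 0.05, beside 7.38% and 7.59% of all genes, and DESeq2 called 0. The most abundant were IFNGR1, with log2 fold changes of -0.21, 0.05, and -0.18, IFNGR2, with 0.06, -0.14, and -0.10, and IL10RB, with 0.09, 0.34, and 0.06. Over the 7 lists together, 58 of 74 genes had reads in each library, 1 (FOS) was higher and 4 (STAT5A, STAT5B, PTPN11, and YES1) were lower by the fold of 1.5 in each line, beside 1.19% and 1.28% of all genes.

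**Figure D5:**
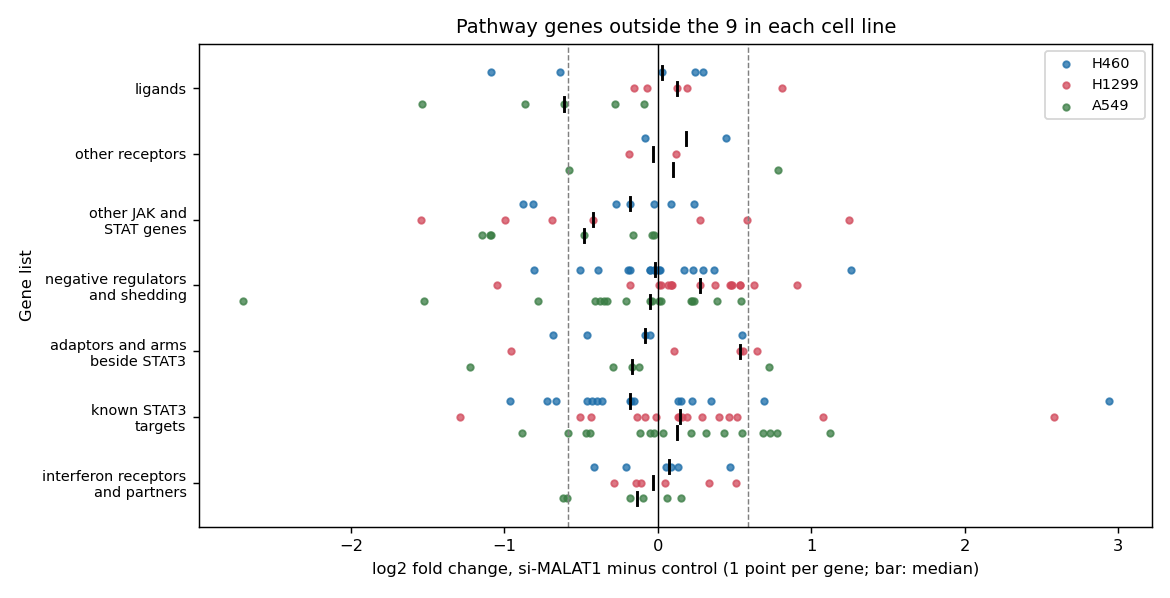
Log2 fold change after si-MALAT1 of pathway genes outside the 9, by list and cell line, with 1 point per gene that had reads in each library, a bar at the list median, and dashed lines at a fold change of 1.5. The medians farthest from 0 are those of the ligands in A549 (-0.61) and the adaptors in H1299 (0.54), and the other JAK and STAT genes lie at -0.18, -0.43, and -0.48 in H460, H1299, and A549.

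The genes most like IL6R over the 6 libraries were found by the root mean square difference of mean-centred log2(scaled count + 1) among 15902 other genes that averaged 50 or more reads. They were MTARC1 (0.534), TC2N (0.562), BASP1-AS1 (0.615), SNCG (0.625), and MEST (0.628), where 0 would be an identical profile. MTARC1 had 962, 68, and 226 reads in the controls of H460, H1299, and A549 and 1215, 119, and 407 after si-MALAT1. MEST had 3502, 395, and 1761 reads in the controls and 5583, 649, and 3731 after si-MALAT1. Before scaling, read counts were not higher after si-MALAT1 in each line for all 5. TC2N had 2921 and 2911 reads in H460, control first, and BASP1-AS1 had 7 and 7 in H1299. The RLE size factors were 1.08 and 1.02 in H460 and 1.26 and 1.15 in H1299, control first. On scaled counts both genes were thus slightly higher after si-MALAT1 in those lines, where BASP1-AS1 rests on few reads. All 5 shared the order H460, A549, H1299 in their control counts, which is also that of IL6R and was favoured by the choice. Among the members SOCS3 was nearest, at 1.11 and rank 252, and TYK2 the farthest, at 2.30 and rank 11262.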

How the data were processed

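RNA-seq was performed on 6 libraries of 3 NSCLC lines, grouped by line and treatment from the labels. Reads were trimmed by the authors and mapped on hg38 by HISAT 2.1.0, followed by estimates of abundance per gene by StringTie on an NCBI annotation. The submitters' processing notes give StringTie 1.3.4b, and the methods name a different version. The deposited read counts are whole numbers and not normalized. The deposited TPM and FPKM were scaled by the authors for length and depth. A stranded kit without ribosomal RNA was used. Another 18 columns of other samples were not used.

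Counts were scaled by RLE size factors, 1 was added, and log2 values were subtracted within a line. Genes with a count of 0 in any library were left out of the counts of genes past a fold change of 1.5. Tests used edgeR 4.0.16 with TMM, filterByExpr, and Benjamini-Hochberg adjusted p under 0.05, and DESeq2 1.42.0 was the alternative. Samples that share a cell line were paired by that line. The script was tested on simulated data. Counting intervals are exact, at 95%, and cover counting error only. With 1 library per line and condition, p-values measure the spread of the response between lines.

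The named genes were the 9 members, MALAT1, list genes past the fold of 1.5 in each line or past the paired test, the 3 with the highest mean TPM in each list, and the 5 most like IL6R. Some genes that this rule names are not reported here. OSM, IL11, CNTF, CNTFR, PIAS1, SOCS6, GAB1, BCL6, CCND1, and IFNAR2 were named after their values were seen. The members and lists were chosen with earlier results of these data known. Members' positions are from the deposited annotation. The 3' UTRs are from GENCODE 44 on GRCh38. R 4.3.3, pandas 2.3.3, scipy 1.17.1, and Python 3.11.15 with numpy 2.4.6 were used.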

Additional observations from a re-analysis of the deposited data

Results flagged for a closer look

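For several genes the change after si-MALAT1 had opposite signs in the lines, with counting intervals on either side of 0. There is 1 library per line and condition, and the difference between the lines was not tested. Among the members, the log2 fold change of STAT3 was -0.25 in H460, -0.13 in A549, and 0.23 in H1299. SOCS3 had 0.10 in H460, 0.072 in A549, and -0.82 in H1299. JAK2 had -0.13 in H460 and 0.38 in H1299. IL6ST had -0.066 in H460 and 0.061 in H1299, both small beside the fold of 1.5.

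H1299 also differed in sign from at least 1 other line for further genes of the route. The log2 fold change of LIF was 0.81 in H1299, -0.64 in H460, and -0.86 in A549. SRC had 0.55 in H1299, -0.46 in H460, and -0.29 in A549. ADAM17 had 0.088 in H1299, -0.51 in H460, and -0.0497 in A549. IL11RA had -0.19 in H1299, 0.44 in H460, and 0.78 in A549. IL27RA had 0.12 in H1299 and -0.58 in A549, and GRB2 had 0.10 in H1299 and -0.17 in A549. For TIMP1 and MCL1, H460 stood against H1299. TIMP1 had -0.36 in H460 and 0.16 in H1299, while A549 was at 0.033 with an interval from -0.068 to 0.134. MCL1 had -0.72 in H460, 0.46 in H1299, and 0.55 in A549.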

How the results depend on the processing

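With a threshold of 1.5 on the log2 scale, 0 members were higher or lower in H460 and in H1299, and 0 were lower in A549. On log2(FPKM + 1), 1 member was higher in H1299, without IL6R, and on log2(FPKM + 1) and log2(TPM + 1), 1 was lower in A549, without LIFR. The number of genes called in the pairs went from 1 to 1140 with DESeq2, which called 1 member, to 0 without a filter on low counts, to 0 without the cell line block, and to between 0 and 163 when 1 line was left out, the 163 without H460. Estimates near 0 changed sign. SOCS3 was 0.039 without the cell line block. With 1 pair left out in turn, SOCS3 ran from -0.385 to 0.082, JAK2 from -0.069 to 0.177, TYK2 from -0.133 to 0.011, STAT3 from -0.192 to 0.037, and IL6ST from -0.046 to 0.0094. Between lines, with 1 library left out in turn, STAT3 in H1299 minus H460 ran from -0.147 to 0.271, LIFR in A549 minus H1299 from -0.402 to 0.0997, and JAK2 there from -0.384 to 0.063.

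With 1 library left out in turn, genes called in A549 against H460 ran from 3736 to 8260 and members called from 3 to 7, with 3 without either A549 library. In A549 against H1299, genes called ran from 5916 to 10755 and members called from 3 to 6, both lowest without the A549 control. The cause was not tested. Of the member differences between lines, 240 under the alternatives kept direction and call, 21 lost their call, 5 gained one, and 4 changed sign. TMM scaling, pseudocounts of 0.5 and 10, and RLE normalization in edgeR moved no count of members or genes called by over 1.5 times. With 2 libraries per line, the paired test rests on 1 response per line.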
